A study of Homo sapiens with 9 samples.

Results

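The genes described here are 43 genes of the cell division cycle, 20 that act at the start of S phase and in DNA replication and 23 that act in G2 and mitosis, out of 60609 gene identifiers counted. They were taken from a list of symbols, each matched to its Ensembl identifier, by a rule that uses no measured value, although earlier results of these data were known when the list was drawn up. All 43 were found, and all 43 passed the filter on low counts, which kept 21682 genes for testing.

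Dividing cells commit to DNA replication when cyclin-dependent kinases phosphorylate the retinoblastoma protein RB and free the E2F factors, which switch on genes for replication origins, nucleotides and DNA synthesis. Later in the cycle the B-MYB and FOXM1 factors, acting with the MuvB complex, switch on a later wave of genes for the mitotic kinases, the spindle and the kinetochore. Outside the cycle the DREAM complex holds many genes of both waves silent, so their RNA is commonly read as a sign of how many cells of a population are dividing. U2-OS, the cell line used, is an established human osteosarcoma line that divides continuously in culture.

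RNA was sequenced after removal of ribosomal RNA from 9 libraries of U2-OS cells grown in DMEM with 10% FBS. Clone A1 and clone A4 both overexpress NCBP2, which with NCBP1 binds the cap of nuclear RNAs, and gave 3 libraries each, replicates A, B and C. The control group is 3 clones with the empty vector, 1 library from each, with vector replicate A from clone 2, B from clone 3 and C from clone 1. The labels do not say whether the 3 libraries of an NCBP2 clone came from separate cultures, so p-values that compare them measure the spread between libraries, which may be technical, and each NCBP2 clone is a single clone.

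These promoters are examples of the 2 classes. Each is given as the 250 bases before the start of the gene, 5′ to 3′ on the gene's strand, from RefSeq on GRCh38.p14. CCAAT boxes occur in the examples of both classes. Capitals mark E2F words and CCAAT boxes, on either strand, in MCM6 (a subunit of the replicative helicase) and E2F1, which represent S phase. In MKI67 and CDC20, which represent mitosis, they mark CHR words and CCAAT boxes. Where marked words overlap they run together.
MCM6, chr2:135876444-135876693, minus strand: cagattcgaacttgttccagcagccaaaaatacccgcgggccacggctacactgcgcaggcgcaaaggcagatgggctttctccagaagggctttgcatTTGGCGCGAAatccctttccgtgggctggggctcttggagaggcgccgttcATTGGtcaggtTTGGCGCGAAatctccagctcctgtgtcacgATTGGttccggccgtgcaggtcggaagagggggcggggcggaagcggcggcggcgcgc
E2F1, chr20:33686386-33686635, minus strand: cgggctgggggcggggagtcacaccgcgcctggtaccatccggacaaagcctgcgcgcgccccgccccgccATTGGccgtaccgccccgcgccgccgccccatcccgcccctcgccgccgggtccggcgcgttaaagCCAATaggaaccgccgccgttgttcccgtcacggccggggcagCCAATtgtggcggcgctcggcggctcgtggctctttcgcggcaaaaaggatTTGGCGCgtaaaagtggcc
MKI67, chr10:128126424-128126673, minus strand: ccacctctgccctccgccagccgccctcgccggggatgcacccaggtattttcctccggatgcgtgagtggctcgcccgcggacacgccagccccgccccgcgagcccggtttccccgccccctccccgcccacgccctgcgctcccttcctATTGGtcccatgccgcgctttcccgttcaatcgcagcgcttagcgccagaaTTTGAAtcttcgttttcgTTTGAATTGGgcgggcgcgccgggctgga
CDC20, chr1:43358731-43358980, plus strand: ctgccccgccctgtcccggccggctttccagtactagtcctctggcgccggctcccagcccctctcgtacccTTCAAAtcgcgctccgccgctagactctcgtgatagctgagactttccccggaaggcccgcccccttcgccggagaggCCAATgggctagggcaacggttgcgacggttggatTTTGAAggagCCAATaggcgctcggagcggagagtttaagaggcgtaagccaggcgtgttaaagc

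The promoter letters bear on the 2 classes because E2F factors are known to bind many S phase genes and MuvB complexes many mitosis genes. RefSeq windows on GRCh38.p14, from 250 bases before to 50 bases after the start of the gene, were found for 34 of the 43 genes. For the 6 of these with several windows, the first was used. Both strands were searched for the E2F word TTCGCGC. Another E2F word searched was TTGGCGC. The remaining E2F word in the search was TTCCCGC. The CHR words, for the cell cycle genes homology region that MuvB reads, were TTTGAA in its usual form and also the variant TTTAAA of that region. The box of factor NF-Y was searched as CCAAT. Overlapping matches were allowed, and no test was made. An E2F word lay in 14 of 16 S phase windows (87.5%) and in 5 of 18 windows of the G2 and mitosis genes (27.8%), against 11.2% of 27305 windows in the table. A CHR word together with CCAAT lay in 2 of 16 S phase windows (12.5%) and in 12 of 18 windows of the mitosis genes (66.7%), against 9.49% of all windows. CHR words alone were in 18.8%, 77.8% and 24.3% of these windows in the same order, and CCAAT in 68.8%, 83.3% and 35.7%. The S phase windows with no E2F word were those of CCNE1 and RRM2.

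As a check of the labels, NCBP2 measured 299 to 348 CPM in clone A1, 456 to 1035 CPM in clone A4 and 90.6 to 98.4 CPM in the vector libraries, where CPM is a gene's count relative to the gene counts of its library after TMM scaling. Against vector it was higher by 1.73 on the log2 scale in clone A1 (SE 0.242, adjusted p 0.0327 by edgeR) and by 2.99 in clone A4 (SE 0.254, adjusted p 0.000417 by edgeR). Gene counts per library lay between 29234022 in clone A1 replicate A and 50554080 for vector replicate B. Clone A1 replicate A stood apart, with correlations of log2 CPM over genes of 0.937 to 0.967 with the other libraries, and 63.6% of its reads in no gene count against 44.5% to 58.1% elsewhere. Of the genes listed for osteosarcoma and bone lineage, RUNX2 (182 to 294 CPM), SPARC, COL1A1 and VIM were present, whereas SP7, BGLAP, IBSP and COL1A2 stayed at or under 1.15 CPM. The 9 genes of that list, VIM among them, summed to 3687 to 4518 CPM in clone A1, 4360 to 5357 in clone A4 and 5145 to 6008 in the vector libraries. Such a sum follows its most abundant genes and is no measure of bone lineage. Markers of leukocytes, epithelium and endothelium were at most 5.58 CPM (EPCAM), and PTPRC, which defines leukocytes, at most 2.01 CPM.

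**Figure D1:**
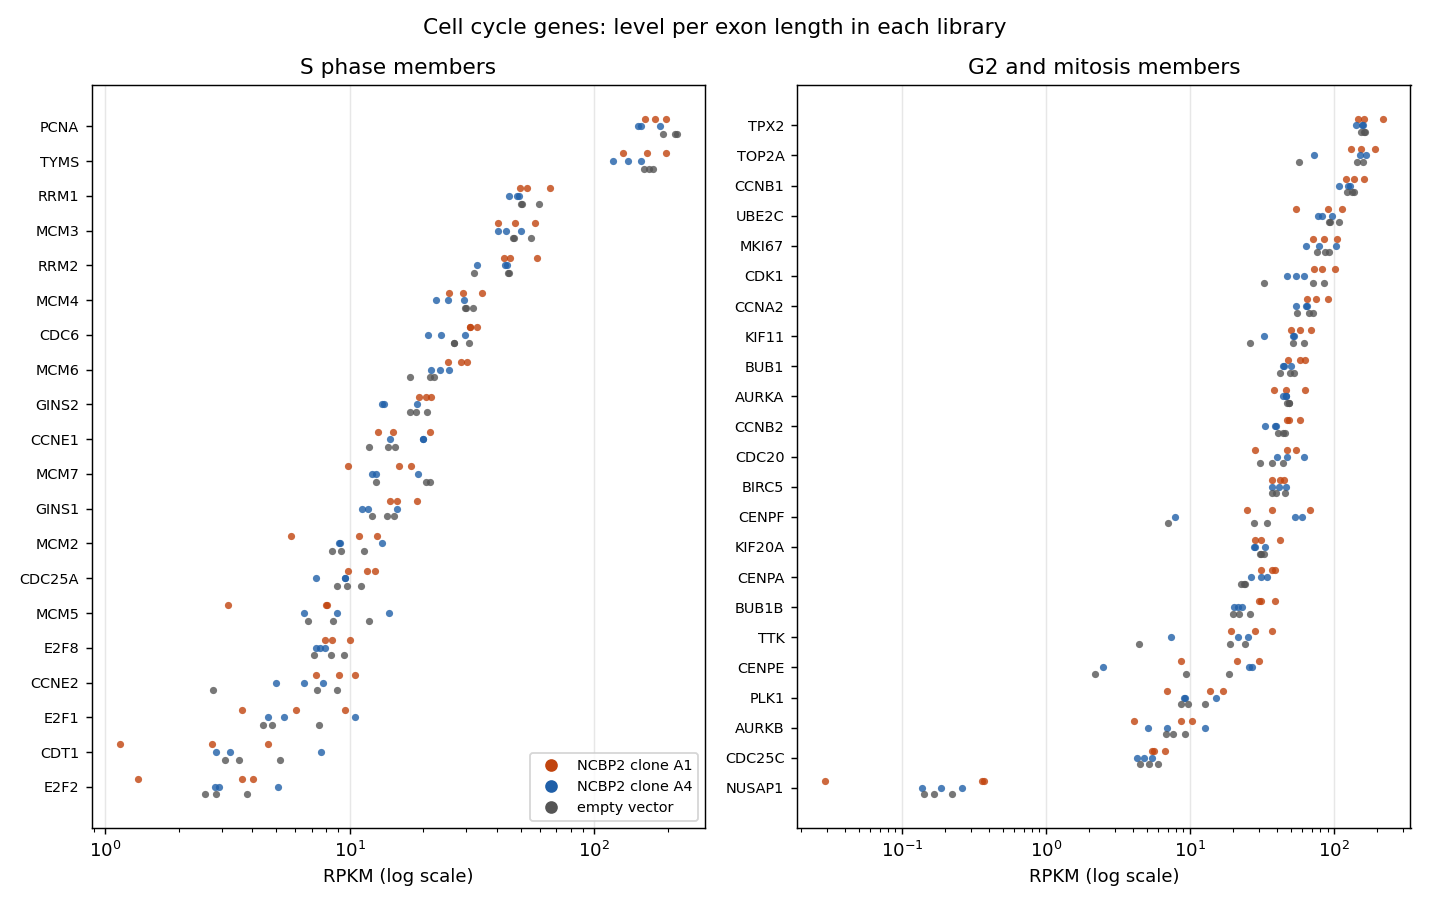
RPKM of each of the 43 genes in each of the 9 libraries, on a log axis, with S phase genes on the left and G2 and mitosis genes on the right, ordered by their mean. The 3 colours mark the groups, which all overlap for 28 of the 43 genes, and NUSAP1, at 0.21 RPKM, lies far below the rest.

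Levels between genes were compared per exon length, as RPKM over all 9 libraries. The most abundant S phase transcripts were PCNA, the sliding clamp of the replicative polymerases, at 183 RPKM, and TYMS, thymidylate synthase, at 156 RPKM. Among the mitosis genes TPX2, the spindle factor that activates Aurora A, led at 162 RPKM, followed by TOP2A, the topoisomerase that untangles sister chromatids, at 136 RPKM and CCNB1, cyclin B1, at 131 RPKM. At the low end were E2F2 at 3.22 RPKM and CDT1, a licensing factor, at 3.78 RPKM. NUSAP1, a microtubule-bundling protein of the spindle, was listed with only 3 to 57 counts per library. In GENCODE 44 its locus is overlapped on the same strand by a read-through gene, ENSG00000285920, which had 0 counts in every library. The counts behind NUSAP1 are therefore uncertain, and its level is not compared between groups. It is among the 23 mitosis genes of the counts, medians and sums given next, and without it 20 of 22 mitosis genes lie above 0 for clone A1 against vector, with a median log2 fold change of 0.23, and 9 of 22 for clone A4 against vector, with a median of -0.06.

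None of the 43 genes passed a Benjamini-Hochberg adjusted p of 0.05 in edgeR's quasi-likelihood test in any of the 4 comparisons. The same test called 14 genes (0.0646% of those tested) for clone A1 against vector, 25 (0.115%) for clone A4 against vector, 35 (0.161%) for clone A4 against clone A1 and 4 (0.0184%) for the 6 NCBP2 libraries together against vector. The overexpressed gene NCBP2 itself passed for each clone against vector. It did not pass for clone A4 against clone A1, nor for the 6 NCBP2 libraries together against vector. At an unadjusted p under 0.05 there were 3 of 43 for clone A1 against vector, where 1628 of all tested genes (7.51%) lay. For clone A4 against vector there were 2 of 43, with 5.25% over all genes. For clone A4 against clone A1 there were 5 of 43, with 6.63% over all genes. The NCBP2 arm gave 2 of 43, with 5.71% over all genes. The 95% intervals of the 43 genes extended a median of 0.37 on the log2 scale, a 1.29-fold change, to either side in the clone comparisons, and were widest for CENPE, whose SE was 0.788 for clone A1 against vector. In bulk RNA a lower level can come from fewer cells in a phase or from less of the RNA per cell, and these cannot be told apart.

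**Figure D2:**
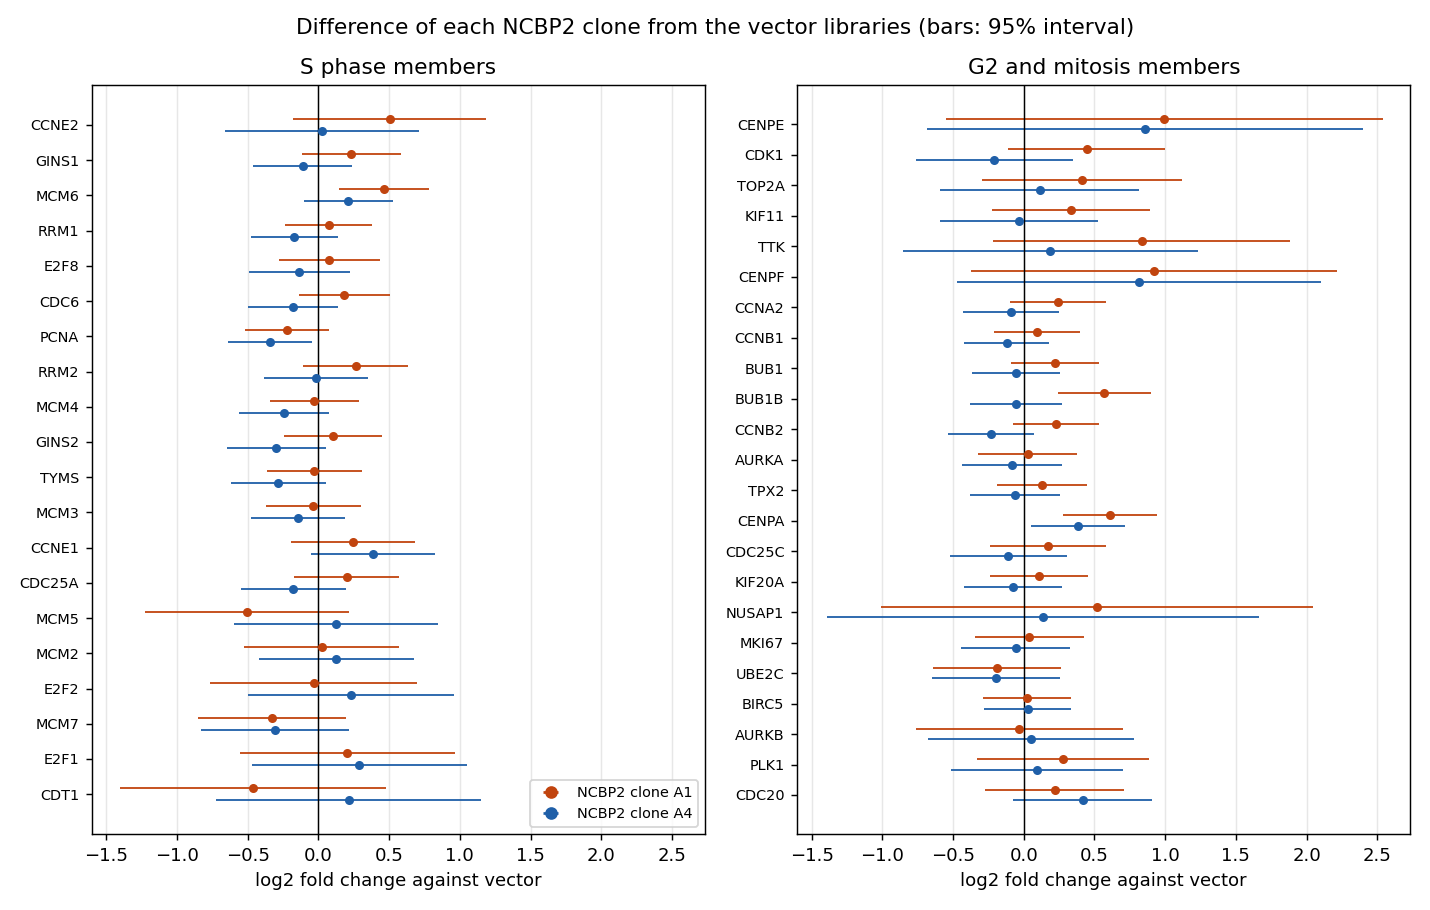
Log2 fold change against the vector libraries for clone A1 and clone A4, for each S phase gene (left) and each G2 or mitosis gene (right), with bars for the 95% interval. The clone A1 values of the mitosis genes lie above 0 in 21 of 23, while those of clone A4 spread on both sides, with 10 above 0.

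Clone A1 was compared with the vector libraries first. The median log2 fold change was 0.08 over the S phase genes, with 12 of 20 above 0, and 0.23 over the mitosis genes, with 21 of 23 above 0. Over all tested genes the median was -0.02, and 48.4% lay above 0. Groups did not overlap for 5 of 43 genes (11.6%), CDC6, MCM6, CCNB2, BUB1B and CENPA, all higher in clone A1, where 6.18% of all tested genes were higher without overlap and 8.06% lower. Without clone A1 replicate C the medians were -0.11 for S phase and 0.10 for mitosis, and without vector replicate B they were 0.15 and 0.14. The S phase median therefore changed sign with 1 library. It was 0.04 without vector replicate A and 0.18 without clone A1 replicate A.

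In clone A4 against vector the medians were -0.12 for S phase, with 8 of 20 above 0, and -0.05 for mitosis, with 10 of 23 above 0. All tested genes had a median of 0.03, and 53.6% lay above 0. Lower without overlap were 6 of 43 genes (14.0%), MCM4, PCNA, TYMS, RRM1, CCNB2 and AURKA, against 5.86% of all genes, and higher without overlap was CENPA (2.33% of the 43, against 6.2%). The S phase median was -0.19 without clone A4 replicate C or vector replicate A, -0.08 with clone A4 replicate A left out and -0.07 without vector replicate C, and the mitosis median -0.11 without vector replicate B and -0.02 without vector replicate C.

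Between the 2 NCBP2 clones the medians were -0.21 for S phase and -0.22 for mitosis, clone A4 lower, with 13 of 20 and 20 of 23 genes below 0. All tested genes had a median of 0.04 and 46.8% lay below 0. Groups did not overlap for 9 of 43 genes (20.9%), all lower in clone A4, where 5.72% of all tested genes were lower without overlap and 7.92% higher. They were CDC25A, CDC6, RRM1, E2F8 and GINS2 of S phase and CCNA2, CCNB2, CDK1 and BUB1B of mitosis. Without clone A1 replicate C the medians shrank to -0.09 and -0.10. This comparison and the one of clone A1 with vector share the clone A1 libraries.

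With both NCBP2 clones together the medians against vector were -0.01 for S phase, with 10 of 20 genes above 0, and 0.09 for mitosis, with 19 of 23 above 0. The median of all genes was 0.02 and 53.0% lay above 0. Without overlap, CENPA was higher (2.33% of the 43), against 1.47% of all tested genes, and 0 genes were lower, against 2.26%. Left-out libraries moved the S phase median from -0.07 (without clone A1 replicate C) to 0.09 (without vector replicate B), on both sides of 0. The mitosis median fell to 0.01 without vector replicate B and to 0.02 without clone A1 replicate C, and was 0.15 without vector replicate C.

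**Figure D3:**
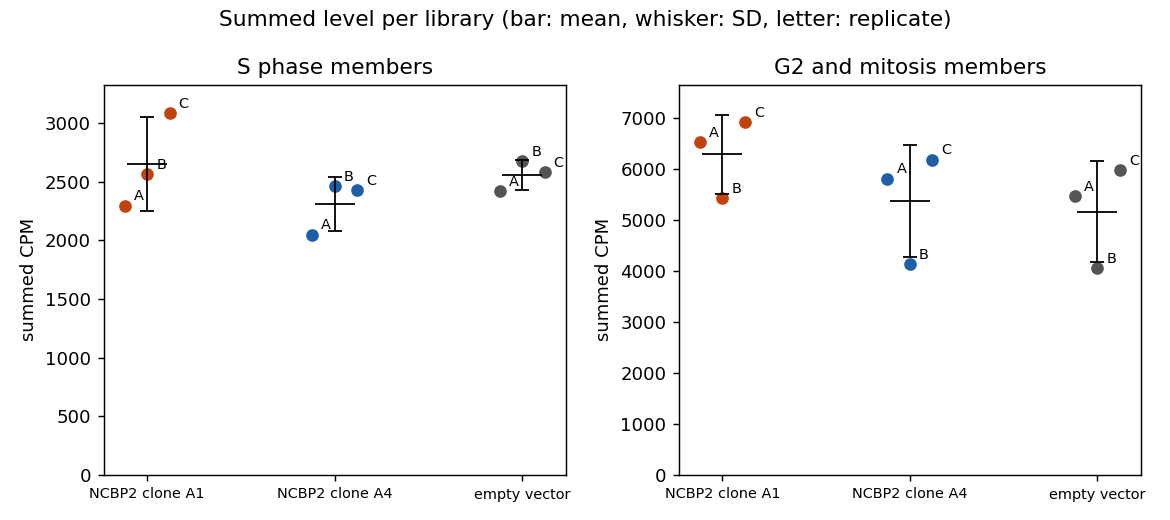
Summed CPM of the 20 S phase genes and of the 23 G2 and mitosis genes in each library, with group means and SD. Clone A1 replicate C has the highest sum in both panels, at 3086 and 6909 CPM, and the replicate B libraries of clone A4 and vector have the lowest mitosis sums.

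Summed over the S phase genes, replicates A to C held 2296, 2566 and 3086 CPM (clone A1), 2049, 2464 and 2427 CPM (clone A4) and 2421, 2678 and 2580 CPM (vector). The groups overlapped, with means of 2649 CPM ± 402 in clone A1, 2313 CPM ± 229.7 in clone A4 and 2560 CPM ± 129.5 in vector (SD, n = 3 each). For the mitosis genes the sums were 6522, 5417 and 6909 CPM (clone A1), 5802, 4125 and 6171 CPM (clone A4) and 5457, 4050.5 and 5964 CPM (vector). Their means were 6283 CPM ± 774, 5366 CPM ± 1090 and 5157 CPM ± 991 (SD, n = 3 each), again with overlap. Clone A1 replicate C was the highest library for 12 of 20 S phase and 14 of 23 mitosis genes, and for 7.38% of 13983 tested protein-coding genes. Clone A1 replicate A was the lowest for 13 of the 43 genes (30.2%), against 34.6% of those protein-coding genes, and vector replicate B for 10 (23.3%), against 17.8%. Letter by letter, clone A1 and clone A4 each had a larger mitosis sum than the vector library of that letter, and replicate B had the lowest mitosis sum of every group. Neither pattern held in full without CENPE, CENPF, TTK, TOP2A, KIF11 and CDK1. These 6 are the mitosis genes that were highest in clone A1 replicate A, and vector replicate B was the lowest library for each. The set thus depends on the same values, and leaving it out tests neither pattern. The mitosis sums of replicates A to C were then 3202, 3545 and 4487 CPM (clone A1), 3267, 3152 and 3529 CPM (clone A4) and 3462, 3289 and 3564 CPM (vector).

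The genes that license origins and build the replicative helicase come first in S phase. CDC6 loads the MCM ring onto origins together with CDT1. For CDC6, replicates A to C held 164, 166 and 176 CPM (clone A1), 111, 157 and 125 CPM (clone A4) and 141, 163 and 142 CPM (vector). All 3 clone A1 libraries lay above the vector libraries and above those of clone A4. Clone A4 differed from clone A1 by -0.36 (SE 0.164, adjusted p 0.738 by edgeR), and clone A1 from vector by 0.18 (SE 0.163, adjusted p 0.838 by edgeR). MCM6 stood at 118, 104 and 125 CPM in clone A1 (replicates A to C), at 88.8, 106 and 97.0 CPM in those of clone A4 and at 73.0, 87.6 and 91.1 CPM in the vector ones. MCM6, a subunit of the ring whose promoter is printed above, was highest in clone A1, where every library exceeded all of vector, while clone A4 overlapped with vector. The difference was 0.46 (SE 0.161, adjusted p 0.459 by edgeR) in clone A1, 0.21 (SE 0.161, adjusted p 0.9997 by edgeR) in clone A4 and 0.34 (SE 0.151, adjusted p 0.838 by edgeR) for the arm.

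For MCM2, replicates A to C held 27.2, 51.7 and 60.8 CPM (clone A1), 43.2, 42.8 and 64.1 CPM (clone A4) and 43.6, 54.1 and 39.8 CPM (vector). MCM5 stood at 23.02, 58.3 and 58.7 CPM in clone A1 (replicates A to C), at 64.3, 47.4 and 105 CPM in those of clone A4 and at 62.4, 87.5 and 49.0 CPM in the vector ones. For MCM7, replicates A to C held 49.0, 78.6 and 88.4 CPM (clone A1), 63.6, 61.3 and 94.0 CPM (clone A4) and 102, 106 and 63.8 CPM (vector). For these 3 ring subunits clone A1 replicate A was the lowest of the 9 libraries, and the groups overlapped. MCM4 stood at 251, 287 and 343 CPM in clone A1 (replicates A to C), at 223, 288 and 249 CPM in those of clone A4 and at 294, 313 and 292 CPM in the vector ones. MCM4 was lower in all 3 clone A4 libraries than in any vector library, by a margin of 288 against 292 CPM at the closest, with a log2 fold change of -0.24 (SE 0.162, adjusted p 0.9997 by edgeR). MCM3, the remaining ring subunit in the list, ranged from 147 to 208 CPM over all libraries and had values between -0.15 and -0.04 in the 4 comparisons. CDT1 ranged from 3.17 CPM (clone A1 replicate A) to 21.0 CPM (clone A4 replicate C). The GINS proteins join MCM and CDC45 in the active helicase. For GINS1, replicates A to C held 117, 125 and 151 CPM (clone A1), 95.04, 125 and 89.9 CPM (clone A4) and 98.8, 114 and 122 CPM (vector). GINS2 stood at 61.6, 65.7 and 69.3 CPM in clone A1 (replicates A to C), at 43.8, 60.8 and 44.5 CPM in those of clone A4 and at 60.1, 66.5 and 56.6 CPM in the vector ones. Clone A4 and clone A1 did not overlap for GINS2, narrowly, and clone A4 was lower, at a log2 difference of -0.40 (SE 0.178, adjusted p 0.735 by edgeR). For GINS1 the difference was -0.35 (SE 0.179, adjusted p 0.782 by edgeR), and the 2 clones overlapped.

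Cyclin E and the phosphatase CDC25A turn on CDK2 at the start of S phase. For CCNE1, replicates A to C held 32.0, 37.1 and 52.4 CPM (clone A1), 35.8, 49.0 and 49.1 CPM (clone A4) and 37.6, 35.5 and 29.5 CPM (vector). CCNE2 stood at 46.4, 31.9 and 39.9 CPM in clone A1 (replicates A to C), at 34.2, 21.95 and 28.7 CPM in those of clone A4 and at 32.3, 12.2 and 38.9 CPM in the vector ones. Cyclin E1 overlapped between groups, and cyclin E2 was lowest in vector replicate B. For CDC25A, replicates A to C held 41.0, 48.7 and 52.4 CPM (clone A1), 30.1, 39.7 and 39.7 CPM (clone A4) and 40.6, 46.3 and 36.9 CPM (vector). CDC25A was lower in every clone A4 library than in every clone A1 library, at a log2 difference of -0.38 (SE 0.19, adjusted p 0.774 by edgeR), and vector lay across both.

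E2F1 is the activator whose release from RB starts this programme. E2F1 stood at 9.75, 16.3 and 25.8 CPM in clone A1 (replicates A to C), at 14.5, 12.4 and 28.1 CPM in those of clone A4 and at 11.9, 20.2 and 13.0 CPM in the vector ones. The lowest library was clone A1 replicate A and the highest clone A4 replicate C, and all groups overlapped. For the arm against vector E2F1 differed by 0.25 (SE 0.33, adjusted p 0.999 by edgeR), with a 95% interval of -0.40 to 0.89. E2F2, another activator, ranged from 7.43 to 27.7 CPM, and E2F8, a repressor of the family, from 29.7 to 41.4 CPM. Clone A4 had less E2F8 than clone A1 without overlap, but only by 32.74 against 32.80 CPM at the closest. The log2 difference was -0.21 (SE 0.183, adjusted p 0.845 by edgeR).

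The sliding clamp and the enzymes of nucleotide supply serve DNA synthesis itself. For PCNA, replicates A to C held 248, 226 and 276 CPM (clone A1), 217, 259.9 and 212 CPM (clone A4) and 299, 268 and 306 CPM (vector). Every clone A4 library lay below every vector library, and clone A1 replicate C exceeded vector replicate B. PCNA differed by -0.34 (SE 0.151, adjusted p 0.918 by edgeR) in clone A4 and by -0.28 (SE 0.13, adjusted p 0.874 by edgeR) in the arm. TYMS stood at 317, 398 and 473 CPM in clone A1 (replicates A to C), at 289.8, 376 and 331 CPM in those of clone A4 and at 387, 420.1 and 406 CPM in the vector ones. TYMS was lower in clone A4 than in vector without overlap, at a log2 difference of -0.28 (SE 0.171, adjusted p 0.9997 by edgeR). Its locus on chromosome 18 is overlapped by the antisense genes ENOSF1 and TYMSOS, and with counts that ignore strand the difference was 0.02. For RRM2, replicates A to C held 391, 412 and 531 CPM (clone A1), 302, 396 and 400.4 CPM (clone A4) and 294, 406 and 411 CPM (vector). RRM2, the regulated subunit of ribonucleotide reductase, overlapped between all groups. RRM1, the large subunit, ranged from 189.5 to 278 CPM and was lower in clone A4 than in either other group without overlap, at a log2 difference of -0.17 (SE 0.156, adjusted p 0.9997 by edgeR) against vector and -0.24 (SE 0.156, adjusted p 0.814 by edgeR) against clone A1.

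**Figure D4:**
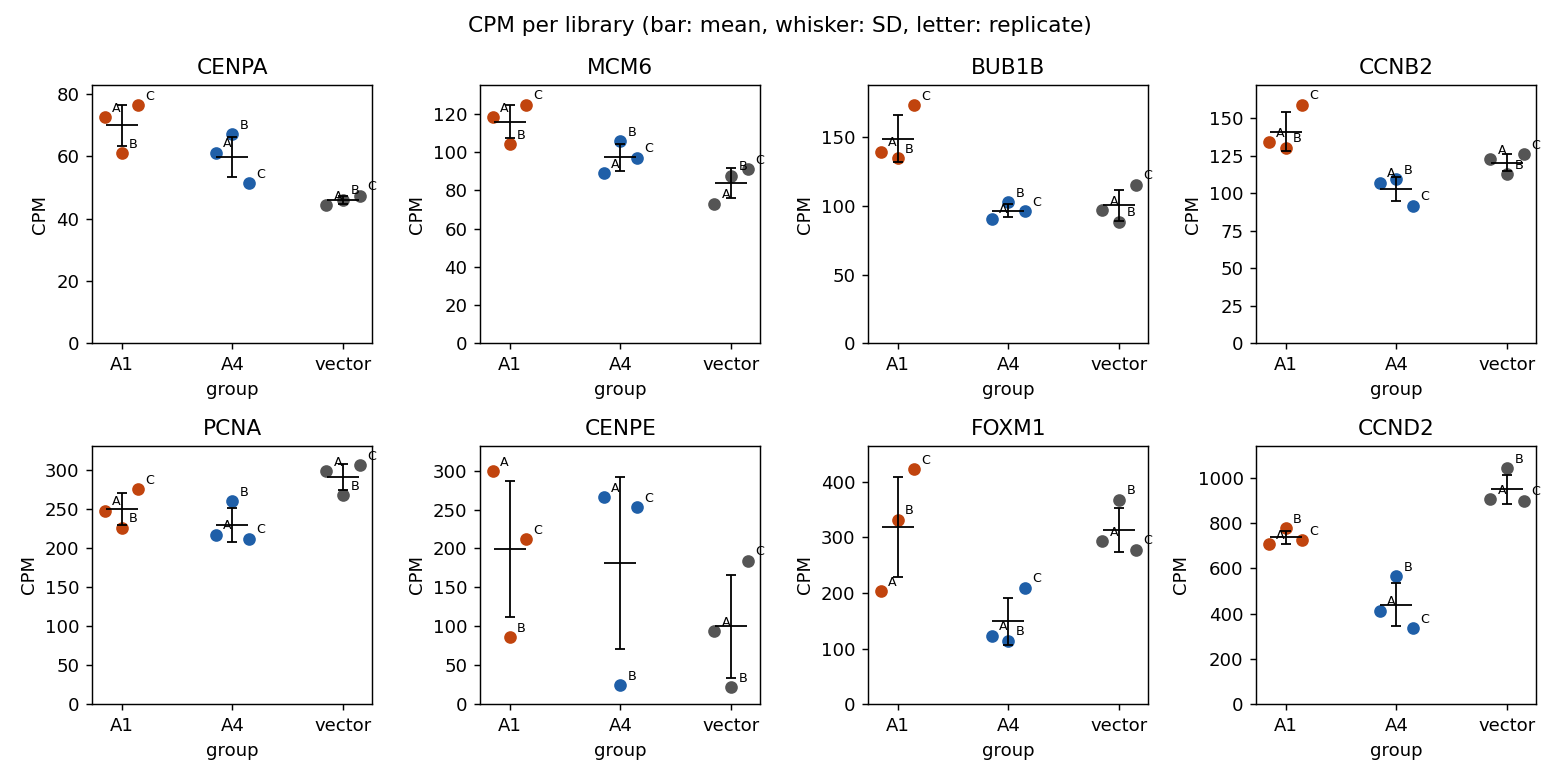
CPM in each library for 6 of the 43 genes and for FOXM1 and CCND2 of the wider lists, with group means and SD and each replicate's letter. CENPA lies higher in all 6 NCBP2 libraries than in vector, CCNB2 is ordered clone A1, vector, clone A4 without overlap, and CCND2 is lowest in clone A4.

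CENPA and BUB1B, of the centromere and kinetochore, had the smallest p-values of the mitosis genes for clone A1 against vector. CENPA (ENSG00000115163.15, chromosome 2, 26764289 to 26801067, plus strand, GRCh38) encodes the histone H3 variant that marks centromeres. CENPA stood at 72.4, 60.9 and 76.3 CPM in clone A1 (replicates A to C), at 61.0, 67.0 and 51.3 CPM in those of clone A4 and at 44.2, 46.1 and 47.3 CPM in the vector ones. All 6 NCBP2 libraries were above all 3 vector libraries, which lay between 44.2 and 47.3 CPM. CENPA differed by 0.61 (SE 0.171, adjusted p 0.321 by edgeR) in clone A1, 0.38 (SE 0.17, adjusted p 0.918 by edgeR) in clone A4 and 0.50 (SE 0.156, adjusted p 0.565 by edgeR) in the arm, higher in 6 of 6 libraries, and missed the threshold in each. Its annotation overlaps SLC35F6 on the same strand, and reads that fit both genes are in neither count.

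BUB1B (ENSG00000156970.12, chromosome 15, 40161023 to 40221123, plus strand) encodes BubR1 of the spindle checkpoint. For BUB1B, replicates A to C held 139, 134 and 173 CPM (clone A1), 90.5, 103 and 96.3 CPM (clone A4) and 96.9, 88.5 and 115 CPM (vector). Clone A1 stood above both other groups without overlap, and clone A4 and vector overlapped. The difference was 0.57 (SE 0.168, adjusted p 0.342 by edgeR) for clone A1 against vector and -0.63 (SE 0.168, adjusted p 0.308 by edgeR) for clone A4 against clone A1. The gene is overlapped by the read-through BUB1B-PAK6 and by PAK6. BUB1 stood at 364, 301 and 398 CPM in clone A1 (replicates A to C), at 284, 316 and 277 CPM in those of clone A4 and at 310.4, 267 and 333 CPM in the vector ones. For BUB1, its partner kinase at the kinetochore, groups overlapped, and clone A4 differed from clone A1 by -0.28 (SE 0.158, adjusted p 0.799 by edgeR).

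CENPE, a kinetochore motor, CENPF, a kinetochore and nuclear matrix protein, and TTK, the MPS1 checkpoint kinase, varied most over libraries, apart from NUSAP1 with its few counts. For CENPE, replicates A to C held 299, 86.1 and 212 CPM (clone A1), 266, 24.7 and 253 CPM (clone A4) and 93.4, 21.9 and 184 CPM (vector). CENPF stood at 854, 311 and 465 CPM in clone A1 (replicates A to C), at 669, 98.2 and 746 CPM in those of clone A4 and at 346, 88.0 and 426 CPM in the vector ones. For TTK, replicates A to C held 171, 88.3 and 129 CPM (clone A1), 116, 33.6 and 98.4 CPM (clone A4) and 86.6, 20.2 and 111 CPM (vector). In all 3 genes vector replicate B and clone A4 replicate B were the lowest libraries and clone A1 replicate A the highest, and the highest exceeded the lowest by 13.7-fold, 9.71-fold and 8.45-fold. CENPE differed by 0.99 (SE 0.788, adjusted p 0.814 by edgeR) in clone A1 and 0.86 (SE 0.786, adjusted p 0.9997 by edgeR) in clone A4, so differences of this size were not detectable over the spread. Without a filter on low counts edgeR gave CENPE 0.98 (adjusted p 0.00187) in clone A1 and 0.86 (adjusted p 0.0153) in clone A4. Its fold changes hardly moved there, but its SE shrank to 0.212 for both clones, from the same libraries. The smaller adjusted p therefore came with a lower estimate of spread, not with a larger difference. Whether that lower estimate holds for CENPE was not tested. Of all 37715 genes kept in this setting, 312 passed for clone A1 and 163 for clone A4 against vector. In the same setting CENPF and TTK passed in clone A1 (adjusted p 0.00502 and 0.0272) and CENPF in clone A4 (adjusted p 0.024), and no other of the 43 genes passed in any comparison or alternative. Without the 3 replicate B libraries the SE of CENPE fell to 0.301, at 0.88 and an edgeR adjusted p of 0.82 in clone A1.

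Cyclin B with CDK1 drives entry into mitosis. CDK1 stood at 398, 285 and 322 CPM in clone A1 (replicates A to C), at 241, 184 and 214 CPM in those of clone A4 and at 278, 128 and 333 CPM in the vector ones. For CCNB1, replicates A to C held 293, 337 and 392 CPM (clone A1), 305, 311 and 264 CPM (clone A4) and 336, 323 and 299 CPM (vector). CCNB2 stood at 134, 130.1 and 159 CPM in clone A1 (replicates A to C), at 107, 109 and 91.5 CPM in those of clone A4 and at 122, 113 and 126 CPM in the vector ones. CDK1 was lower in all clone A4 libraries than in all of clone A1, whereas vector spanned both, with vector replicate B the lowest of all. Cyclin B1 overlapped between groups. Cyclin B2 (ENSG00000157456.8, chromosome 15, 59105126 to 59125045, plus strand) was highest in clone A1, lowest in clone A4 and between them in vector, without overlap between any groups. Clone A4 differed from clone A1 by -0.46 (SE 0.155, adjusted p 0.515 by edgeR) for CCNB2 and -0.65 (SE 0.284, adjusted p 0.712 by edgeR) for CDK1. For CCNA2, replicates A to C held 204, 177 and 249 CPM (clone A1), 175, 177 and 149 CPM (clone A4) and 184, 152 and 197 CPM (vector). Cyclin A2, which serves S phase and G2, had lower values in clone A4 than clone A1 without overlap, 176.7 against 177.1 CPM at the closest, at a log2 difference of -0.33 (SE 0.174, adjusted p 0.787 by edgeR). CDC25C, the phosphatase that activates CDK1, ranged from 14.2 to 22.2 CPM with values between -0.28 and 0.17.

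PLK1 stood at 33.0, 65.6 and 81.0 CPM in clone A1 (replicates A to C), at 43.6, 43.02 and 71.6 CPM in those of clone A4 and at 46.4, 60.8 and 41.3 CPM in the vector ones. For CDC20, replicates A to C held 57.3, 94.4 and 109.9 CPM (clone A1), 95.2, 80.8 and 124 CPM (clone A4) and 74.4, 88.9 and 61.6 CPM (vector). PLK1, the polo-like kinase, and CDC20, the mitotic activator of the anaphase-promoting complex, were lowest in clone A1 replicate A and overlapped between groups. CDC20 differed by 0.42 (SE 0.251, adjusted p 0.9997 by edgeR) in clone A4 and 0.32 (SE 0.219, adjusted p 0.999 by edgeR) in the arm. The Aurora kinases AURKA and AURKB ranged from 112.5 to 184 CPM and from 9.19 to 28.3 CPM. AURKA was lower in clone A4 (130 to 136.5 CPM) than in vector (138 to 143 CPM) without overlap, at a log2 difference of -0.08 (SE 0.18, adjusted p 0.9997 by edgeR). BIRC5, survivin, the partner of Aurora B, varied least of the 43 genes, 1.25-fold from the lowest to the highest library. It differed by 0.02 (SE 0.134, adjusted p 0.999 by edgeR) in the arm, with a 95% interval of -0.24 to 0.29.

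MKI67 stood at 919, 1094 and 1355 CPM in clone A1 (replicates A to C), at 1010.4, 816 and 1321 CPM in those of clone A4 and at 1109, 985 and 1181 CPM in the vector ones. For TOP2A, replicates A to C held 1232, 835 and 985 CPM (clone A1), 966, 459 and 1052 CPM (clone A4) and 914, 364 and 1015 CPM (vector). MKI67, the Ki-67 antigen used to mark dividing cells, overlapped in all groups and differed by 0.04 (SE 0.196, adjusted p 0.98 by edgeR) in clone A1 and -0.06 (SE 0.196, adjusted p 0.9997 by edgeR) in clone A4. Its 95% interval was -0.34 to 0.42 in clone A1 and -0.44 to 0.33 in clone A4. TOP2A was lowest in vector replicate B and clone A4 replicate B. The motors KIF11 and KIF20A, TPX2 and the ubiquitin carrier UBE2C overlapped between all groups, with log2 values between -0.37 and 0.34 in the 4 comparisons.

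**Figure D5:**
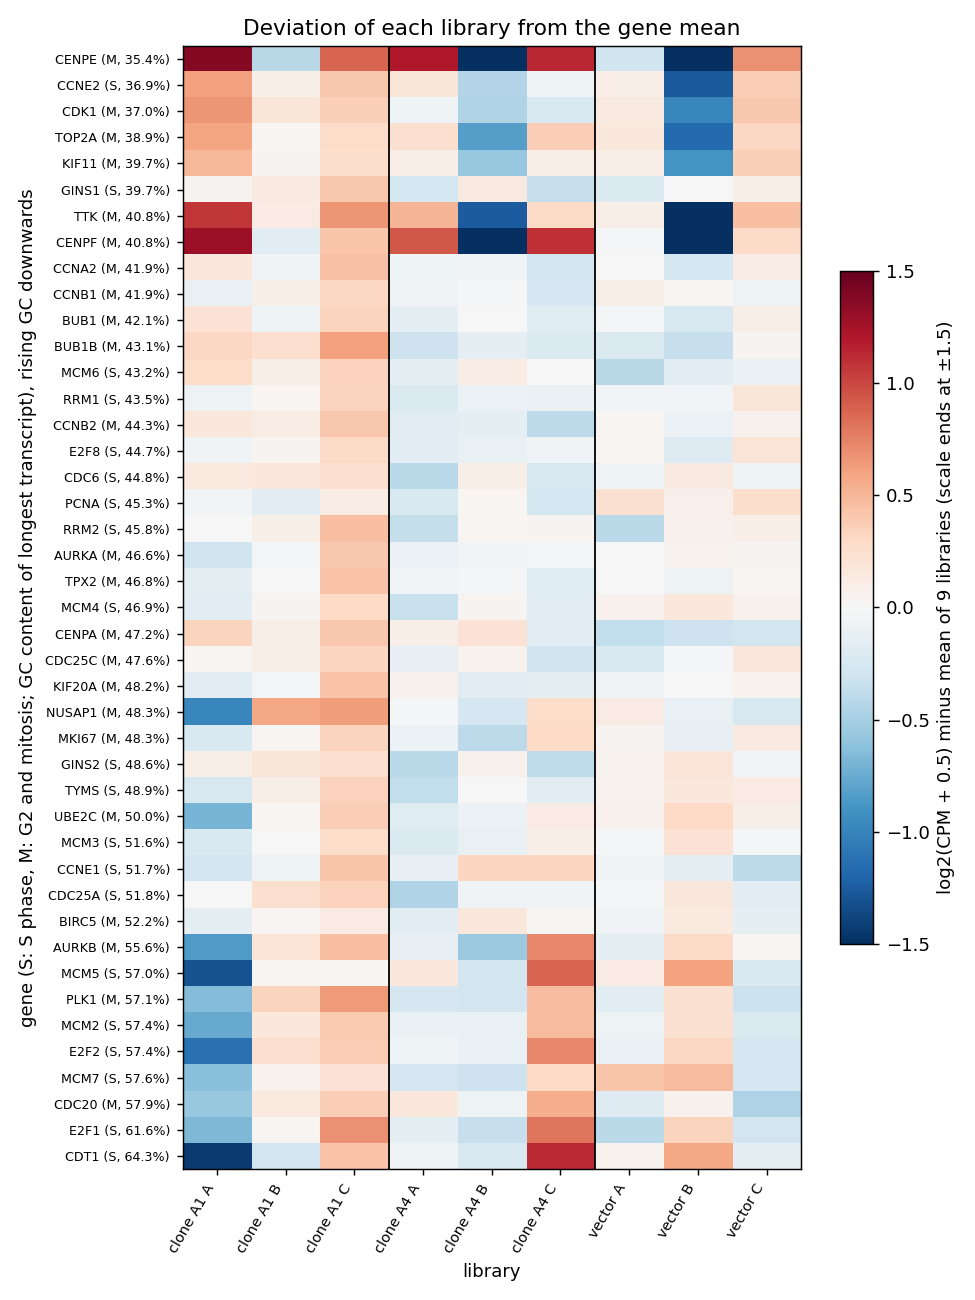
Deviation of each library from the gene's mean over 9 libraries, as log2(CPM + 0.5), for the 43 genes in order of the GC content of the longest transcript, lowest at the top. Clone A1 replicate A runs from high at the top to low at the bottom, vector replicate B runs the other way, and clone A1 replicate C is above the mean for most genes.

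The members' order within several libraries followed the GC content of their longest transcript. Over the 43 genes, Spearman's rho between GC content and the deviation from the gene's mean was -0.861 in clone A1 replicate A, 0.841 in vector replicate B, -0.783 in vector replicate C and 0.420 in clone A4 replicate C. Over 13983 tested protein-coding genes the values were -0.645, 0.679, -0.523 and 0.582. These are correlations over genes of 1 library, which are not independent, and they share the gene's mean. Clone A1 replicate C had a rho of -0.038 over the 43 genes and a median deviation near 0.4 in every GC class, 0.40 under 42%, 0.34 from 42% to 55% and 0.39 over 55%, against -0.01, 0.04 and 0.10 over all protein-coding genes.

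The 10 genes under 42% GC (CCNA2, CCNB1, CCNE2, CDK1, CENPE, CENPF, GINS1, KIF11, TOP2A and TTK) had a median deviation of -1.07 in vector replicate B, -0.51 in clone A4 replicate B and 0.61 in clone A1 replicate A. All tested protein-coding genes under 42% GC had -0.37, -0.05 and 0.34 in these libraries. In clone A4 replicate B rho with GC content was 0.134 over the 43 genes and 0.013 over the protein-coding genes. The 9 genes over 55% GC (AURKB, CDC20, CDT1, E2F1, E2F2, MCM2, MCM5, MCM7 and PLK1) had a median deviation of -0.75 in clone A1 replicate A and 0.72 in clone A4 replicate C. Protein-coding genes over 55% GC had -0.63 and 0.52 there. For clone A1 against vector, the median log2 fold change was 0.43 for the genes under 42% GC, 0.12 for the 24 genes between and -0.03 for those over 55%. Protein-coding genes of the same classes had 0.16, -0.05 and -0.22. With offsets for GC content and length in edgeR, a fit chosen after the data were seen, the members' medians were 0.34, 0.18 and 0.08, and 0 of 43 passed, with 6 (14.0%) at an unadjusted p under 0.05 in clone A1 against vector, where 2586 of the 21638 genes in that fit lay, a share near that of the 43. The smallest adjusted p of CENPA was then 0.0555, in clone A1, where it differed by 0.64. The part of GC content in these differences was not tested.

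The wider cell cycle lists held 142 other genes, of which 141 were tested. Of the 16 genes of G1 cyclins, kinases and inhibitors, 15 were tested, and CDKN2A, the p16 inhibitor, had 0 counts in every library, where 0 allows up to 3. CCND2 was the only gene of these lists to pass, lower in clone A4 than in vector. CCND2 (ENSG00000118971.8, chromosome 12, 4269771 to 4305353, plus strand) encodes cyclin D2, a partner of CDK4 and CDK6 in G1. CCND2 stood at 708, 778 and 724 CPM in clone A1 (replicates A to C), at 413, 565 and 337 CPM in those of clone A4 and at 904, 1042 and 899 CPM in the vector ones. Clone A4 lay lowest and vector highest, without overlap between any groups. The difference was -1.11 (SE 0.184, adjusted p 0.0446 by edgeR) in clone A4, -0.75 (SE 0.182, adjusted p 0.249 by edgeR) for clone A4 against clone A1 and -0.36 (SE 0.182, adjusted p 0.693 by edgeR) in clone A1. Over 19 alternatives the adjusted p of clone A4 against vector ranged from 6.3e-05 to 0.324 and was under 0.05 in 9. It was over 0.05 without any library other than clone A1 replicate A or clone A4 replicate B, and 0.324 without clone A4 replicate A.

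CDKN1A, the p21 inhibitor, and CDKN1B, the p27 inhibitor, had the smallest p-values of this list in clone A1. For CDKN1A, replicates A to C held 43.8, 59.6 and 68.3 CPM (clone A1), 73.1, 92.5 and 96.0 CPM (clone A4) and 78.5, 124 and 82.0 CPM (vector). CDKN1B stood at 237, 195 and 175 CPM in clone A1 (replicates A to C), at 134, 163 and 115 CPM in those of clone A4 and at 157, 127 and 133 CPM in the vector ones. CDKN1A was lower in clone A1 than in vector without overlap, at a log2 difference of -0.73 (SE 0.227, adjusted p 0.385 by edgeR), and CDKN1B higher without overlap, at a log2 difference of 0.54 (SE 0.182, adjusted p 0.45 by edgeR). CDKN2B, the p15 inhibitor, differed by -0.56 (SE 0.244, adjusted p 0.635 by edgeR) in clone A1 and -0.52 (SE 0.244, adjusted p 0.959 by edgeR) in clone A4. The median over the list was -0.14 in clone A1 and -0.12 in clone A4.

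Among 17 genes of the RB, E2F and DREAM list, 0 passed in any comparison. FOXM1 (ENSG00000111206.12, chromosome 12, 2857680 to 2877174, minus strand), the factor of the mitotic wave, had the smallest p. For FOXM1, replicates A to C held 203, 332 and 423 CPM (clone A1), 123, 114 and 209 CPM (clone A4) and 293, 368 and 278 CPM (vector). All clone A4 libraries lay below all vector libraries, and clone A1 replicate A fell below the highest of clone A4. FOXM1 differed by -1.07 (SE 0.281, adjusted p 0.349 by edgeR) against vector and -1.10 (SE 0.282, adjusted p 0.28 by edgeR) against clone A1. In 3 of 19 alternatives FOXM1 passed against vector and in 4 of 19 against clone A1, those without a filter, with voom and with GC and length offsets in both, and DESeq2 in the latter (adjusted p 0.0406). Its adjusted p ranged from 0.000215 to 1 over the alternatives against vector and from 0.000165 to 0.834 against clone A1. In clone A1 LIN9, a MuvB subunit, differed by 0.66 (SE 0.316, adjusted p 0.681 by edgeR). Of the 47 other replication genes 0 passed, with medians of 0.14 in clone A1 and -0.05 in clone A4. The smallest p-values belonged to the origin recognition subunits ORC4, 0.67 (SE 0.218, adjusted p 0.412 by edgeR), and ORC2, 0.51 (SE 0.194, adjusted p 0.532 by edgeR), and to the nuclease DNA2, 0.50 (SE 0.186, adjusted p 0.517 by edgeR), in clone A1, and to MCM10, -0.43 (SE 0.189, adjusted p 0.89 by edgeR), in clone A4. Clone A4 fell below clone A1 without overlap for 10 of these 47 genes, against 5.72% of all tested genes, and DNA2 differed there by -0.63 (SE 0.187, adjusted p 0.376 by edgeR).

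Of the 50 other mitosis genes 0 passed. Their medians were 0.28 in clone A1, with 45 of 50 above 0, and 0.02 in clone A4, with 30 of 50 above 0, and -0.32 between the clones. Clone A4 was lower than clone A1 without overlap for 9 of 50, where 5.72% of all tested genes were, and higher for 0, against 7.92%. NCAPD2 (ENSG00000010292.13, chromosome 12, 6493356 to 6531955, plus strand), a condensin subunit, differed by -0.66 (SE 0.21, adjusted p 0.556 by edgeR) in clone A4 and -0.74 (SE 0.21, adjusted p 0.344 by edgeR) between the clones. Between the clones NCAPD2 passed in 2 of 19 alternatives, voom (adjusted p 0.012) and GC and length offsets (adjusted p 0.0182), over which its adjusted p reached 0.873. Without a filter, 7 genes of this list and the checkpoint list passed in clone A1 against vector, where 312 of 37715 genes did. These 7 genes passed in that setting alone. SPC25 of the NDC80 complex differed by 0.54 (SE 0.206, adjusted p 0.539 by edgeR) and KIF23, a motor of cytokinesis, by 0.42 (SE 0.181, adjusted p 0.627 by edgeR) in clone A1, and NDC80 itself by -0.69 (SE 0.256, adjusted p 0.586 by edgeR) between the clones. The 12 checkpoint genes held 0 calls, and the smallest p against vector were those of TOPBP1, 0.44 (SE 0.216, adjusted p 0.692 by edgeR), in clone A1 and CHEK2, -0.35 (SE 0.184, adjusted p 0.9997 by edgeR), in clone A4.

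CCND2, FOXM1 and NCAPD2 lie on chromosome 12 below position 13000000, as do CDCA3 and CDKN1B of the same lists, while 0 of the 43 genes do. The 203 tested genes there had a median log2 fold change of -0.49 in clone A4 against vector and -0.60 against clone A1, with 154 and 158 of 203 below 0. In clone A1 against vector their median was 0.10.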

How the data were processed

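Read counts per gene were deposited for each of 9 libraries, as whole-number counts without normalization. Per the submitters' processing notes, reads were aligned with STAR 2.7.1a to GRCh38, and the annotation is not given in the sources used here. Per the file layout, 4 opening lines name no gene (44.5% to 63.6% of reads), and these entered neither library sizes nor tests. Column 2 holds counts without regard to strand, column 3 counts on the gene's strand, which were used, and column 4 counts on the opposite strand (5.51% to 6.42% of stranded counts). The labels' protocols describe removal of ribosomal RNA, whereas the molecule field names polyadenylated RNA.

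Identifiers were matched to GENCODE 44 without version (60295 of 60609). Tests were edgeR's quasi-likelihood test (edgeR 4.0.16, R 4.3.3, robust) after filterByExpr and TMM, with Benjamini-Hochberg adjustment over 21682 genes and a threshold of 0.05. A fit of 3 groups gave the clone comparisons, and a fit of 2 groups the NCBP2 arm, whose 6 libraries come from 2 clones. CPM used TMM library sizes, RPKM also the exon length, and deviations log2(CPM + 0.5). The 95% intervals come from the SE by a normal approximation. The script was tested on simulated counts with a smaller spread between libraries than these data have. Its power at the spread of these data was not tested. Alternatives were DESeq2 1.42.0, limma 3.58.1 voom with library weights, other scalings, no filter, counts without strand, a replicate block, fits of fewer libraries and counts summed per clone. The cell cycle genes and lists were chosen with earlier results of these data known. Libraries were named in full where a gene was an anchor of its role or among the 5 of smallest p in its class and comparison. Of the wider lists, genes past the threshold or of smallest p were named, and CDCA3 by its position after values were seen. Counting error is small at these totals, and intervals cover the spread between libraries, not counting alone.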

Additional observations from a re-analysis of the deposited data

Results flagged for a closer look

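Clone A1 replicate C was far above the other NCBP2 libraries for 3 mitosis genes. Among the 6 NCBP2 libraries its AURKA level was 184 CPM, its KIF20A level 163 CPM and its TPX2 level 782.5 CPM, each with a gap to the next library that exceeds Dixon's 95% critical value for 6 samples. Chance gives such a gap in about 1 in 20 groups of independent samples from 1 population, whereas these 6 libraries come from 2 clones. Each of the 43 genes was examined once. The genes are not independent tries, since clone A1 replicate C was the highest of all 9 libraries for 26 of the 43. The cause was not tested.

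CCNB2 lay on opposite sides of vector in the 2 NCBP2 clones. The rule that flagged it looked among the 43 genes for such an order without overlap. The share of all tested genes with this order was not counted. At the closest, clone A1 had 130.1 against 125.8 CPM in vector, and clone A4 109.3 against 112.7 CPM. All 3 clone A1 libraries lay above all vector libraries and all 3 clone A4 libraries below them, with a log2 difference of -0.46 between clone A4 and clone A1 (SE 0.155). By edgeR that difference did not pass the threshold (adjusted p 0.515), and no other test of the opposite directions was made.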

How the results depend on the processing

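The count of 0 of 43 genes held in every alternative but 1: without a filter on low counts 3 passed in clone A1 against vector and 2 in clone A4 against vector. The counts over all genes moved with the test. In the order clone A1 and clone A4 against vector, clone A4 against clone A1, and NCBP2 arm, they were 274, 185, 246 and 108 by DESeq2, 282, 214, 145 and 205 by voom with library weights, and 312, 163, 231 and 20 without a filter. With only the 6 libraries compared, clone A1 gave 7, and counts summed per clone gave 0 for the arm by edgeR, with 906 genes at an unadjusted p under 0.05. With 1 library left out the counts ranged from 3 to 14, 7 to 41, 10 to 56 and 1 to 8 in the same order. In fits added after seeing the data they were 4, 9, 8 and 2 without the 3 replicate B libraries, and 130, 90, 134 and 34 with GC and length offsets.

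The replicate letters were not treated as pairing in the main fits. Libraries of the same letter correlated in their deviations from the group means between -0.248 (clone A1 and vector replicate C) and 0.322 (clone A1 and vector replicate B), with 6 of 9 such pairs over 0.1. The letter A pairs lay between 0.261 and 0.320. Clone A1 replicate C correlated more with vector replicate B (0.386) than with vector replicate C. With the letter as a replicate block the counts were 38, 53, 51 and 13, and 0 of 43 genes passed.

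Counts without regard to strand turned TYMS from -0.28 to 0.0194 in clone A4 against vector and from -0.15 to 0.0697 in the arm. They moved the summed S phase level to 1996 CPM in clone A4, 2232 CPM in vector and 2287 CPM in clone A1, the last within its SD. Over the alternatives, the 40 fold changes of smallest p (5 in each class and comparison) kept direction and side of the threshold 755 times, passed it 3 times and turned 2 times. Of all 172 fold changes (43 genes, 4 comparisons), 78 changed sign in at least 1 alternative, none of them above 0.38 in size, and 5 passed, all without a filter. Fold changes within the interval of a gene, a median of 1.29-fold to either side, were not detectable, and larger ones could be missed too. The interval is not adjusted for the number of genes tested, whereas the threshold is. CENPA in clone A1 against vector, at 0.61 with an interval of 0.27 to 0.94, did not pass (adjusted p 0.321 by edgeR). The lack of calls among the 43 genes in the main test therefore does not exclude changes above 1.29-fold.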
